A study of Mus musculus with 9 samples.

Results

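The mRNA levels of 48 genes of mitosis, kinetochore assembly and chromosome segregation were compared over 3 immortalized striatal cell lines of the mouse, a cell model of Huntington disease. The genes were taken by symbol from the 36410 genes listed in the count table. The rule uses no measured value, but the list was chosen with earlier results of these data known. All 48 were found, and 48 of 48 passed the filter on low counts that left 13508 genes in the tests. Control cells (STHdhQ7/Q7) carry a knock-in wild-type huntingtin (Htt) exon 1 with 7 glutamine repeats on both alleles. HD-het cells (STHdhQ7/Q111) carry 1 allele with 7 repeats and 1 knock-in mutant allele with 111 repeats, and HD-homo cells (STHdhQ111/Q111) carry 111 repeats on both alleles. All 3 lines are labelled strain C57/BL6, were derived from the striatum of mouse embryos and were untreated as far as the labels say, and each gave 3 libraries. Each genotype is a single line, so an effect of the repeat length and a difference between lines cannot be told apart, and gene counts do not show the repeat length itself. The labels do not say whether the 3 libraries of a line came from separate cultures, so the p-values measure the spread between these libraries, which may be technical.

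Mitosis is driven by the kinase Cdk1 with its A-type and B-type cyclins and by the Aurora and Polo-like kinases. Kinetochores attach chromosomes to spindle microtubules, and the spindle checkpoint holds back the anaphase-promoting complex, a ubiquitin ligase, until all chromosomes are attached. The ligase then removes securin and cyclin B, separase cuts cohesin, and the central spindle and contractile ring divide the cell. Most of these genes are transcribed in the G2 and M phases, so that their mRNA is abundant only in cycling cells. In these bulk libraries, fewer cells in G2 and M and less RNA per cell cannot be told apart.

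Transcription of this programme is known to run through a short promoter element, the cell cycle genes homology region (CHR), often with CCAAT boxes upstream of it. The windows below are 30 bases each from RefSeq promoters of build GRCm38.p6, written on the gene's own strand, with TTTGAA in capitals. They are shown only for members that hold TTTGAA, picked among those on which the results turn, cyclin B2 and Mki67 among those higher in both HD lines, separase, Racgap1 and Cdk1 among those lower in HD-het cells, and Ect2, lower in both.
Ccnb2: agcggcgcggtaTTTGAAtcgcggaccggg
Mki67: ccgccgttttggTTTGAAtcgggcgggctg
Espl1: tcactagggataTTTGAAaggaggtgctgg
Racgap1: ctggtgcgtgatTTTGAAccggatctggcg
Cdk1: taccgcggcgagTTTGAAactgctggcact
Ect2: ccgtttaccggaTTTGAAacacactcacaa
The windows lie at chr9:70421533-70421562 on the minus strand for Ccnb2, chr7:135716460-135716489 on the minus strand for Mki67, chr15:102296254-102296283 on the plus strand for Espl1, chr15:99651634-99651663 on the minus strand for Racgap1, chr10:69352910-69352939 on the minus strand for Cdk1 and chr3:27153975-27154004 on the minus strand for Ect2. Counting the first transcribed base as base 1, the capitals begin at base 5 in Ccnb2 and base 6 in Racgap1. In Cdk1, Espl1 and Mki67 they begin 15, 27 and 98 bases before the transcription start, and in Ect2 114 bases before the first of its listed starts. Ect2 also has TTTGAA at base 40 from that start. Its CCAAT boxes begin 96 and 55 bases before that start and at base 2, so the copy printed lies upstream of them. Further copies begin 167, 116 and 71 bases before the start in Ccnb2, Mki67 and Cdk1. The same promoters also hold CCAAT on one of the strands, as in this window of Ccnb2 at chr9:70421558-70421587, with the box in capitals, 21 bases before the start.
Ccnb2: gcgtgcgtctacCCAATagtgcgtcagcgg
RefSeq promoters of 300 bases (250 before and 50 from the start) were matched by symbol for 40 of the 48 genes, 46 promoters in all, and Ccna2, Aurkb, Spc24, Incenp, Smc4, Tpx2, Foxm1 and Ska1 were not matched. TTTGAA or TTCGAA on either strand was present in 29 of the 46 promoters (63.0%), against 19.2% of all 32851 promoters listed. CCAAT on either strand was present in 76.1% against 37.4%, and both in 58.7% against 7.52%. The matched genes without the CHR letters were Birc5, Ccnb1, Cenpe, Cenpi, Cenpk, Fzr1, Knstrn, Mad1l1, Mad2l1, Mybl2, Ncaph, Nek2, Nuf2 and Pttg1. Against control, the CHR letters were found in genes of each outcome. Of the matched genes, the CHR letters were present in 10 of 14 with a higher call in HD-homo cells, 4 of 7 with a lower call and 12 of 19 that did not pass, and in 3 of 3, 11 of 15 and 12 of 22 for the same outcomes in HD-het cells. Between the HD lines they were present in 13 of 20 higher genes, 0 of 1 lower gene and 13 of 19 that did not pass. A match of letters is a description of the sequence and not a measured site.

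The libraries held between 29507665 and 41197931 counts. The 48 genes took 0.787 to 0.839% of them in the control line, 0.666 to 0.698% in the HD-het line and 0.760 to 0.930% in the HD-homo line. Levels are given below as normalized counts per megaread (CPM), always in the order of replicates 1, 2 and 3. Of 10 marker genes of striatal medium spiny neurons, Foxp1 alone had a mean over 3 CPM in any line. Drd1 had 0 counts, Drd2 had 1 count in all 9 libraries together, and 4 of the 10 passed the filter. General neuronal genes (2 of 5 tested, led by Map2) summed to 92.8 to 113.5 CPM in the control line, 106 to 114 CPM in the HD-het line and 88.8 to 113 CPM in the HD-homo line. Within that list Rbfox3, Syt1 and Snap25 had 5, 3 and 2 counts in all 9 libraries together. Markers of progenitor and mesenchymal identity were expressed and differed between the lines. Neural progenitor genes (4 of 4 tested, led by Vim) summed to 5894 to 6356 CPM in the control line, 5315 to 5819 CPM in the HD-het line and 4157 to 4574 CPM in the HD-homo line. Most of this progenitor sum was Vim, with means of 5383, 4568 and 4264 CPM. Mean Nes was 526, 840 and 28.4 CPM, Sox2 128, 82.9 and 5.48 CPM, and Pax6 32.1, 48.2 and 0.132 CPM, each lowest in the HD-homo line. Fibroblast or mesenchymal genes (4 of 5 tested, led by Col1a1) summed to 2195 to 2908, 6686 to 8175 and 5633 to 6202 CPM. Most of this sum was Col1a1, and the genes of the list did not move together. Mean Col1a1 was 2464.7, 7097 and 4234.5 CPM and Pdgfrb 92.7, 362 and 146 CPM, highest in the HD-het line. Mean Col1a2 was 73.4, 3.15 and 1494 CPM and Dcn 4.06, 1.65 and 21.5 CPM, lowest in the HD-het line. Summed microglial markers stayed at 2.45 CPM or less in every library, with Aif1 at 0. The part of these identity differences in the results below was not tested.

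The summed level of the 48 genes was 8125, 8380 and 7855 CPM in the control line (8120 ± 262, SD, n = 3), 6757, 6879 and 7096 CPM in the HD-het line (6911 ± 172) and 8690, 9069 and 7613 CPM in the HD-homo line (8457 ± 755). All 3 HD-het sums lay below the lowest control sum. The HD-homo sums lay on both sides of the control range, and HD-homo replicate 3 was low within its line, with 2 of 48 genes above the line mean on the log2 scale, against 42 of 48 in HD-homo replicate 2. The median coefficient of variation of the 48 genes was 2.87% in the control line, 4.71% in the HD-het line and 10.5% in the HD-homo line. The fit estimates 1 spread for each gene over all 9 libraries, so the standard errors below do not carry this difference between the lines. With only the 2 lines compared, HD-homo against control had 15 higher and 7 lower genes, HD-het against control 5 and 22, and HD-homo against HD-het 22 and 2. Over all tested genes these fits gave, in the same order, 3813 and 3708 of 13102, 4811 and 4492 of 13095, and 4512 and 4554 of 13315. Per kilobase of exon, Top2a had the highest mean level over the 9 libraries (143 CPM per kb), followed by Racgap1 (122 CPM per kb) and Cdc20 (96.0 CPM per kb), and Ska1 the lowest (6.48 CPM per kb).

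**Figure D1:**
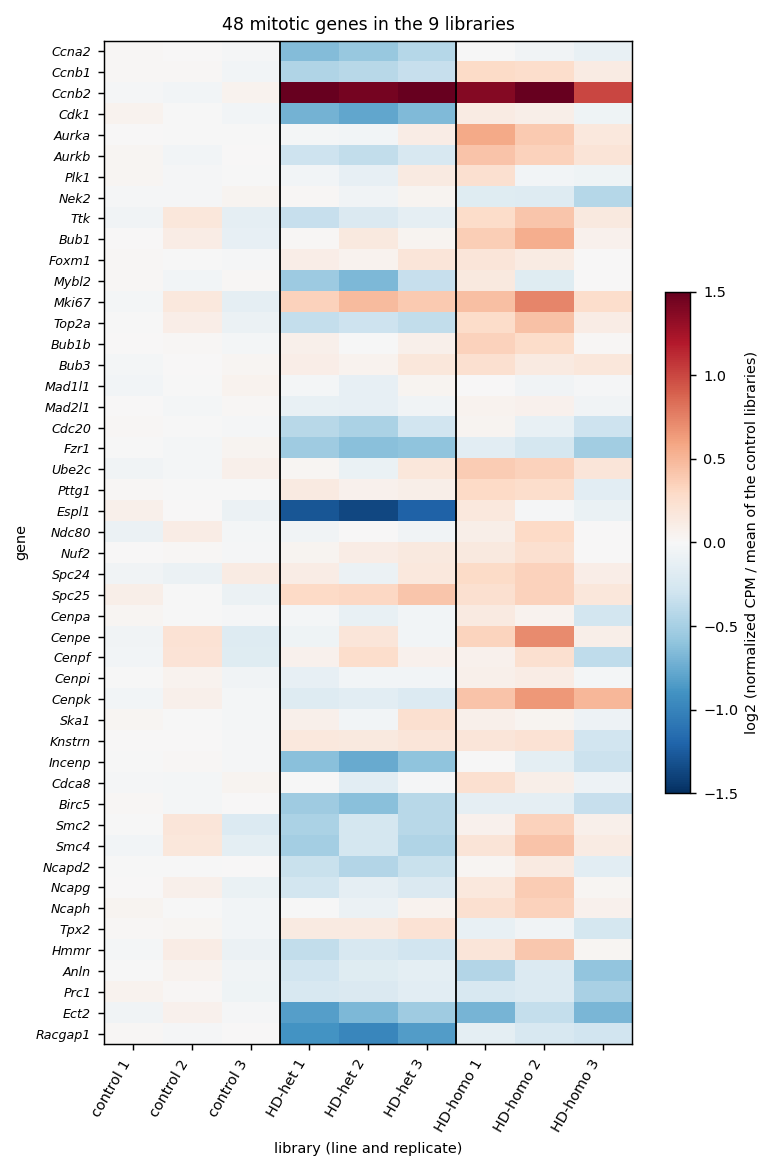
Level of each of the 48 genes (rows, ordered by role) in each of the 9 libraries (columns), as log2 of the normalized CPM over the mean of the 3 control libraries. Ccnb2 stands out as the darkest red row in both HD lines and Espl1 as the darkest blue row in HD-het cells, and the column of HD-homo replicate 3 is bluer than those of replicates 1 and 2.

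In HD-homo against control cells, 24 of the 48 genes passed an adjusted p of 0.05 in edgeR's quasi-likelihood test, 17 higher and 7 lower. That is 50% of the genes, against 58.6% of all tested genes, 35.4% higher against 29.6% and 14.6% lower against 28.9%. The count of higher genes depended on single libraries. It was 10 without control 1, 9 without control 3, 11 without HD-homo 1, 10 without HD-homo 2 and 23 without HD-homo 3, with 6 to 9 lower genes in the same fits. Higher calls over all tested genes in these fits were, in the same order, 3475 of 13703, 3613 of 13702, 3750 of 13691, 3870 of 13667 and 3848 of 13661. Lower calls over all tested genes ranged from 3367 to 3800. In the full fit, 4002 of 13508 were higher and 3908 lower. Libraries of the 2 lines did not overlap for 19 genes (39.6%, against 65.3% of all tested genes).

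In HD-het against control cells, 23 genes passed, 4 higher and 19 lower. That is 47.9% of the genes against 65.1% of all tested genes, 8.33% higher against 33.8% and 39.6% lower against 31.4%. Leaving out 1 library at a time gave 3 higher and 16 to 20 lower. Over all tested genes (13651 to 13703) the same fits gave 4082 to 4452 higher and 3783 to 4122 lower. Libraries did not overlap for 33 genes (68.8%, against 74.0%). The comparisons of both HD lines with control cells use the same 3 control libraries.

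In HD-homo against HD-het cells, 26 genes passed, 24 higher and 2 lower in HD-homo cells. That is 54.2% against 71.6% of all tested genes, 50% higher against 36.0% and 4.17% lower against 35.6%. Without HD-homo 2, 21 were higher and 4 lower, and without HD-homo 3, 32 were higher and 2 lower, with Bub1b, Cdca8, Cenpa, Cenpi, Mad2l1, Ndc80, Pttg1 and Spc24 added. Over all tested genes these fits gave 4770 higher and 4822 lower of 13667, and 4781 higher and 4737 lower of 13661. Libraries did not overlap for 25 genes (52.1%, against 72.8%).

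The differences were small for most members. The median size of the log2 fold change was 0.20 for the 48 genes and 0.32 for all tested genes in HD-homo against control cells, 0.20 and 0.40 in HD-het against control cells, and 0.27 and 0.46 in HD-homo against HD-het cells. In these comparisons 47, 41 and 40 of the 48 genes lay within 1.5-fold of equality, against 69.2%, 64.5% and 58.1% of all tested genes. A log2 fold change beyond 1 was measured for Ccnb2 against control in both HD lines and for Espl1 in HD-het cells against both other lines. The signed median of the log2 fold change was 0.10, -0.066 and 0.207 for the 48 genes and 0.008, 0.025 and 0.002 for all tested genes.

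**Figure D2:**
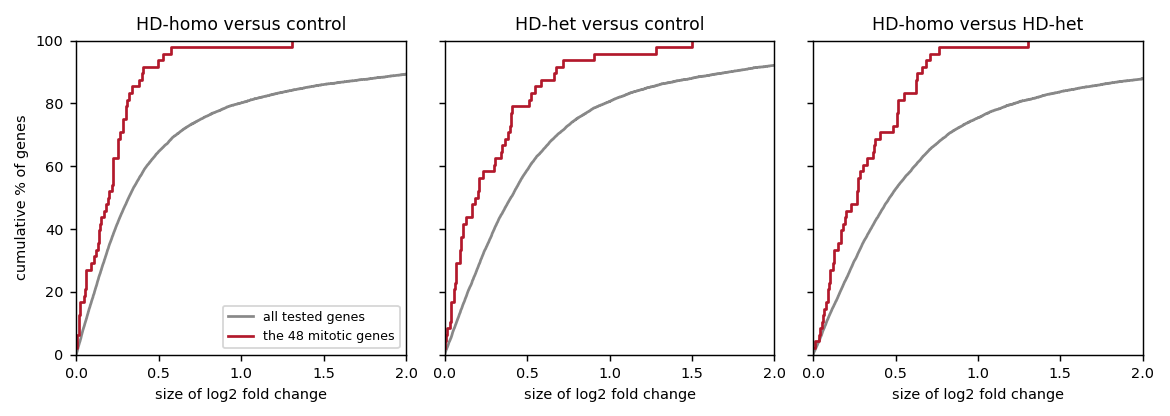
Cumulative percentage of genes (vertical axis) whose log2 fold change is at most a given size (horizontal axis, cut at 2), for the 48 genes (red) and for all 13508 tested genes (grey), 1 panel per comparison. The red curve runs to the left of the grey one over most of each panel, with medians of 0.20 against 0.32, 0.20 against 0.40 and 0.27 against 0.46.

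**Figure D3:**
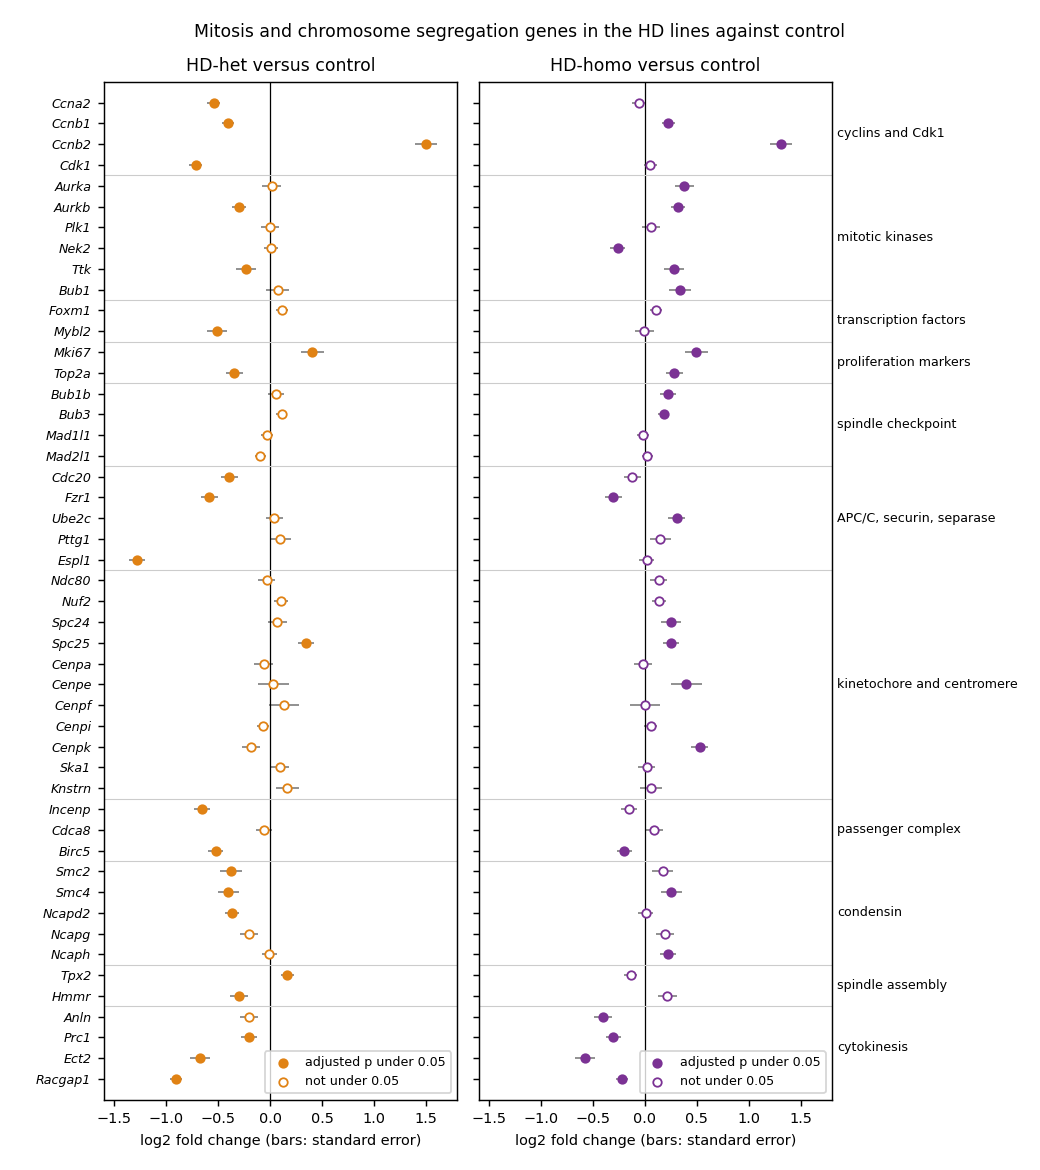
Log2 fold change of each of the 48 genes (points, with the standard error as bars) in HD-het and in HD-homo cells against control cells, grouped by role, with Aurkb, Ttk and Bub1 drawn among the kinases. Filled points passed an adjusted p of 0.05, and the genes of cytokinesis lie left of 0 in both panels.

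In the counts by role that follow, the shares over all tested genes are 29.6% higher and 28.9% lower for HD-homo against control, 33.8% and 31.4% for HD-het against control, and 36.0% and 35.6% for HD-homo against HD-het. The role lists hold 2 to 11 genes, so a count near those shares says nothing about a list. The cyclins and Cdk1 included the gene with the highest log2 fold change of the 48 in both HD lines, Ccnb2, beside 3 genes that were lower in HD-het cells. Cyclin B2 (Ccnb2, chr9:70407692-70421547, minus strand), a partner of Cdk1, had 37.2, 36.5 and 39.1 CPM in control, 109, 102 and 109 CPM in HD-het and 97.7, 106 and 75.5 CPM in HD-homo libraries. Every library of both HD lines was above every control library, and the HD-het and HD-homo libraries overlapped. Its level was higher than control in the HD-homo line (log2 fold change 1.31, SE 0.11, adjusted p = 1.1e-06) and in the HD-het line (log2 fold change 1.50, SE 0.11, adjusted p = 4.8e-07). Between the HD lines the log2 fold change of HD-homo over HD-het was -0.19 (adjusted p = 0.117), and it did pass without HD-homo 2 (-0.29, adjusted p = 0.0163). Cyclin B1 (Ccnb1, chr13:100778650-100786570, minus strand), the main mitotic cyclin, had 185, 185 and 177 CPM in control, 133, 136 and 143 CPM in HD-het and 222, 219 and 198 CPM in HD-homo libraries. The 3 lines were separate, HD-het lowest and HD-homo highest. Ccnb1 was lower in HD-het cells (log2 fold change -0.41, SE 0.06, adjusted p = 1.2e-04) and higher in HD-homo cells (log2 fold change 0.23, SE 0.06, adjusted p = 0.0074), and the direct comparison of HD-homo with HD-het also passed (log2 fold change 0.63, adjusted p = 2.7e-06). Of the 50-base words of Ccnb1 transcripts, 42.1% are shared with the pseudogenes Ccnb1-ps, Gm12856 and Gm8416, so its counts are uncertain to the extent that shared reads were split. Cdk1 itself (chr10:69335146-69352938, minus strand) had 353, 339.9 and 332 CPM in control, 209, 199 and 216 CPM in HD-het and 372, 363 and 327 CPM in HD-homo libraries. The HD-het libraries were all below the others, and control and HD-homo overlapped. Its difference was called in HD-het cells (log2 fold change -0.72, SE 0.063, adjusted p = 2.2e-06) and not in HD-homo cells (log2 fold change 0.05, adjusted p = 0.513). Cyclin A2 (Ccna2), which acts in S phase and early mitosis, had 363, 361 and 357 CPM in control, 229.9, 244 and 267 CPM in HD-het and 357, 347 and 334 CPM in HD-homo libraries. HD-het was again the low line (log2 fold change -0.55, SE 0.062, adjusted p = 1.6e-05), while HD-homo overlapped control (log2 fold change -0.06, adjusted p = 0.438).

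**Figure D4:**
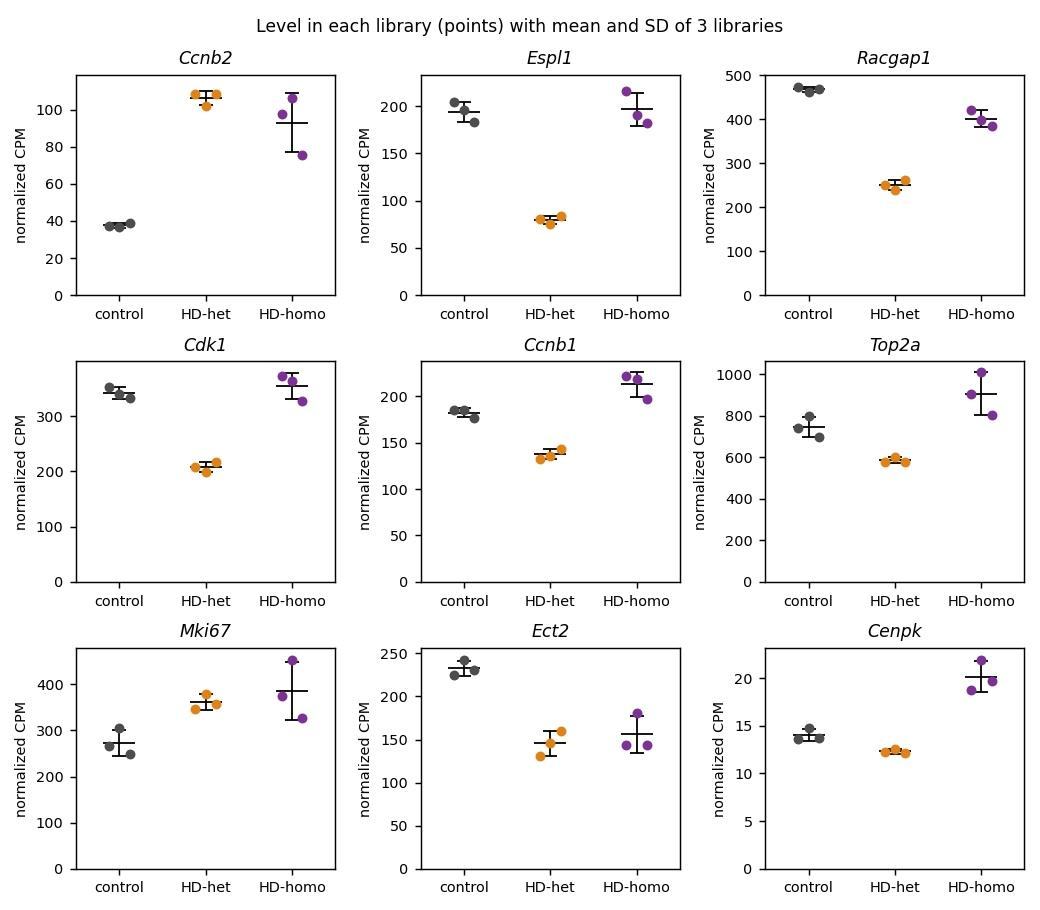
Normalized CPM in each library (points, in the order of replicates 1 to 3) for 9 members, with the mean (wide bar) and SD (whiskers) of the 3 libraries of each line. Espl1, Racgap1, Cdk1 and Ccnb1 are lowest in all 3 HD-het libraries, Ccnb2 is lowest in all 3 control libraries and Cenpk is highest in all 3 HD-homo libraries.

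Of the 2 transcription factors that drive the G2 and M programme, Mybl2 (B-Myb, a partner of the MuvB complex) had 116, 111 and 115 CPM in control, 77.9, 71.7 and 89.9 CPM in HD-het and 126, 100.2 and 115 CPM in HD-homo libraries. Its HD-het libraries were all below the others (log2 fold change -0.51, SE 0.095, adjusted p = 5.9e-04), and HD-homo overlapped control (log2 fold change -0.0045, adjusted p = 0.971). Of its 50-base words 23.8% are shared with Gm3320 and AC151978.1. Foxm1 had 154, 152 and 151 CPM in control, 164, 157 and 173 CPM in HD-het and 173, 166 and 153 CPM in HD-homo libraries. The HD-het values were all above control and the HD-homo values overlapped control, and neither difference passed (log2 fold change 0.11, adjusted p = 0.12 in HD-het, log2 fold change 0.11, adjusted p = 0.138 in HD-homo). Without HD-homo 3 the HD-homo difference of Foxm1 passed (log2 fold change 0.15, adjusted p = 0.0483).

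Both proliferation markers were higher in the HD-homo line. Of the same pair, 1 was higher and 1 lower in the HD-het line. Mki67, which coats mitotic chromosomes and is the usual marker of cycling cells, had 267, 305 and 249 CPM in control, 347, 379.7 and 358 CPM in HD-het and 375, 453 and 328 CPM in HD-homo libraries. Both HD lines lay above control without overlap, the HD-homo line by log2 fold change 0.49, SE 0.11, adjusted p = 0.00251 and the HD-het line by log2 fold change 0.40, SE 0.11, adjusted p = 0.00716. Top2a, the topoisomerase that untangles sister chromatids, had 740.2, 797 and 699 CPM in control, 579.8, 602 and 579 CPM in HD-het and 905, 1010 and 803 CPM in HD-homo libraries. Top2a was lowest in HD-het (log2 fold change -0.35, SE 0.083, adjusted p = 0.00339) and highest in HD-homo cells (log2 fold change 0.28, SE 0.083, adjusted p = 0.0127), and the 2 HD lines differed (log2 fold change 0.63, adjusted p = 3.8e-05). The HD-homo call of Top2a was lost without control 3 (log2 fold change 0.24, adjusted p = 0.0545).

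Among the 6 mitotic kinases, 4 were higher and 1 was lower in HD-homo cells, against 0 higher and 2 lower in HD-het cells. Over all tested genes 29.6% were higher and 28.9% lower in the first comparison and 33.8% and 31.4% in the second. Aurora A (Aurka), the centrosomal Aurora kinase, had 85.8, 85.3 and 85.0 CPM in control, 83.8, 82.7 and 92.0 CPM in HD-het and 126, 112 and 95.1 CPM in HD-homo libraries. Every HD-homo library was above the other lines (log2 fold change 0.38, SE 0.09, adjusted p = 0.00384), while HD-het overlapped control (log2 fold change 0.01, adjusted p = 0.907). Aurora B (Aurkb), the kinase of the chromosomal passenger complex, had 88.3, 83.9 and 87.1 CPM in control, 69.9, 66.9 and 73.5 CPM in HD-het and 116, 109 and 98.9 CPM in HD-homo libraries. The 3 lines were separate, and Aurkb passed as lower in HD-het (log2 fold change -0.30, SE 0.067, adjusted p = 0.00212), as higher in HD-homo (log2 fold change 0.32, SE 0.067, adjusted p = 0.00164) and between the HD lines (log2 fold change 0.62, adjusted p = 7.2e-06). Nek2, a kinase of centrosome separation, had 118, 119 and 123 CPM in control, 121, 116 and 124 CPM in HD-het and 106, 105 and 89.4 CPM in HD-homo libraries. It was low in all 3 HD-homo libraries (log2 fold change -0.26, SE 0.068, adjusted p = 0.00661), and HD-het overlapped control (log2 fold change 0.0032, adjusted p = 0.972). Plk1, the Polo-like kinase of mitotic entry and spindle assembly, did not pass in any comparison (log2 fold change 0.06, adjusted p = 0.611 in HD-homo, log2 fold change -0.0029, adjusted p = 0.98 in HD-het).

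The spindle checkpoint list (6 genes, 2 of them kinases counted above) had 4 higher genes in HD-homo cells and 1 lower gene in HD-het cells. Bub1, a kinetochore kinase, had 105, 114 and 96.5 CPM in control, 107, 117 and 108 CPM in HD-het and 136, 154 and 110.2 CPM in HD-homo libraries. HD-homo replicate 3 lay inside the control range, and the HD-homo call (log2 fold change 0.34, SE 0.11, adjusted p = 0.0186) was lost without control 1, control 3 or HD-homo 2 (log2 fold change between 0.22 and 0.34, adjusted p between 0.0502 and 0.0769). Ttk, the kinase Mps1, had 48.3, 56.1 and 45.5 CPM in control, 39.2, 42.9 and 45.4 CPM in HD-het and 60.5, 66.5 and 55.2 CPM in HD-homo libraries. HD-het was below control without overlap and HD-homo overlapped control. Its calls in HD-het (log2 fold change -0.23, SE 0.095, adjusted p = 0.049) and in HD-homo (log2 fold change 0.28, SE 0.095, adjusted p = 0.0244) were both lost in fits without single libraries, the first without control 1, control 2, HD-het 1 or HD-het 2 (log2 fold change between -0.26 and -0.14, adjusted p between 0.0699 and 0.218) and the second without control 1, control 3 or HD-homo 2 (log2 fold change between 0.21 and 0.26, adjusted p between 0.082 and 0.0989). The HD-het call was also lost with at least 10 counts required in every library (adjusted p = 0.0547). The difference between the HD lines was called (log2 fold change 0.52, adjusted p = 4.8e-04). Bub3, the scaffold that holds Bub1 and Bub1b at kinetochores, had 135, 138 and 139.9 CPM in control, 148, 143 and 155 CPM in HD-het and 162, 151 and 154 CPM in HD-homo libraries. Control was lowest, the HD lines overlapped, and the HD-homo difference passed (log2 fold change 0.18, SE 0.053, adjusted p = 0.0135), but was lost without control 1 or HD-homo 1 (log2 fold change between 0.15 and 0.16, adjusted p between 0.0522 and 0.064). Bub1b passed in HD-homo (log2 fold change 0.22, adjusted p = 0.0303) and was lost without control 1, control 2, control 3, HD-homo 1 or HD-homo 2 (log2 fold change between 0.15 and 0.23, adjusted p between 0.0648 and 0.122). Mad1l1, which recruits Mad2 to unattached kinetochores, had 70.6, 71.9 and 75.0 CPM in control, 70.7, 66.5 and 74.8 CPM in HD-het and 72.7, 70.0 and 71.4 CPM in HD-homo libraries. The lines overlapped and no difference passed. Mad2l1 did not pass either (log2 fold change 0.02, adjusted p = 0.748 in HD-homo, log2 fold change -0.10, adjusted p = 0.13 in HD-het).

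Of the 5 genes of anaphase onset, 1 was higher and 1 lower in HD-homo cells, and 3 were lower in HD-het cells. Separase (Espl1, chr15:102296266-102324357, plus strand), the protease that cuts cohesin, had 204, 196 and 183 CPM in control, 80.1, 75.2 and 84.0 CPM in HD-het and 217, 191 and 182 CPM in HD-homo libraries. All 3 HD-het libraries were far below the 6 others, among which control and HD-homo overlapped. Its HD-het level was 2.44-fold lower than in control cells (log2 fold change -1.28, SE 0.077, adjusted p = 1.3e-07), its HD-homo level did not pass (log2 fold change 0.02, adjusted p = 0.862), and HD-homo exceeded HD-het (log2 fold change 1.301, adjusted p = 5.2e-08). Its inhibitor securin (Pttg1) had 56.7, 55.7 and 55.8 CPM in control, 61.5, 58.7 and 59.5 CPM in HD-het and 68.9, 67.2 and 50.1 CPM in HD-homo libraries. Here the HD-homo libraries overlapped both other lines and no difference passed (log2 fold change 0.10, adjusted p = 0.424 in HD-het, log2 fold change 0.15, adjusted p = 0.231 in HD-homo), although HD-homo passed without HD-homo 3 (log2 fold change 0.28, adjusted p = 0.00173). The anaphase-promoting complex is switched on by Cdc20 and then by Fzr1 (Cdh1). Fzr1 had 91.1, 89.4 and 94.2 CPM in control, 63.2, 59.3 and 60.5 CPM in HD-het and 82.2, 76.4 and 63.9 CPM in HD-homo libraries. It was highest in control cells and lowest in HD-het cells, without overlap (log2 fold change -0.59, SE 0.082, adjusted p = 8.1e-05 in HD-het, log2 fold change -0.30, SE 0.082, adjusted p = 0.00794 in HD-homo). Cdc20 was lower in HD-het cells (log2 fold change -0.39, SE 0.083, adjusted p = 0.00145) and did not pass in HD-homo cells (log2 fold change -0.12, adjusted p = 0.235), though it did without HD-homo 1 (log2 fold change -0.20, adjusted p = 0.0479). The E2 enzyme of the complex, Ube2c, had 116, 117 and 126 CPM in control, 122, 112 and 135 CPM in HD-het and 156, 152 and 136 CPM in HD-homo libraries. HD-homo was above both other lines (log2 fold change 0.31, SE 0.079, adjusted p = 0.00649), which overlapped (log2 fold change 0.04, adjusted p = 0.689).

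Of the 11 kinetochore and centromere genes, most did not pass against control. In total 4 were higher and 0 lower in the HD-homo line, and 1 was higher and 0 lower in the HD-het line. Cenpk (chr13:104228611-104252392, plus strand), a subunit of the constitutive centromere network, had 13.6, 14.7 and 13.7 CPM in control, 12.3, 12.6 and 12.1 CPM in HD-het and 18.8, 21.9 and 19.7 CPM in HD-homo libraries. HD-homo was the highest line and HD-het the lowest without overlap, and the test was passed in HD-homo (log2 fold change 0.53, SE 0.081, adjusted p = 1.9e-04) but not in HD-het (log2 fold change -0.19, SE 0.082, adjusted p = 0.0683). With only the 2 lines compared, the HD-het difference passed (adjusted p = 0.0394). Spc25, of the Ndc80 complex that binds microtubules, had 29.1, 27.1 and 25.6 CPM in control, 33.6, 33.8 and 36.3 CPM in HD-het and 32.3, 34.6 and 30.5 CPM in HD-homo libraries. Both HD lines were above control (log2 fold change 0.34, SE 0.074, adjusted p = 0.00183 in HD-het, log2 fold change 0.25, SE 0.074, adjusted p = 0.0126 in HD-homo), and the second call was lost without control 3 (log2 fold change 0.21, adjusted p = 0.0546). Cenpa, the histone H3 variant of centromeres, had 101, 99.3 and 98.0 CPM in control, 97.3, 91.9 and 96.6 CPM in HD-het and 109, 103 and 82.1 CPM in HD-homo libraries. HD-homo overlapped both other lines, and no difference passed (log2 fold change -0.02, adjusted p = 0.872 in HD-homo, log2 fold change -0.06, adjusted p = 0.559 in HD-het). The remaining higher genes in HD-homo cells were the Ndc80 complex subunit Spc24 (log2 fold change 0.25, adjusted p = 0.0371), lost without control 1, control 2, HD-homo 1 or HD-homo 2 (log2 fold change between 0.20 and 0.23, adjusted p between 0.0881 and 0.132), and the kinetochore motor Cenpe (log2 fold change 0.40, adjusted p = 0.0367), lost without control 1, control 3, HD-homo 1 or HD-homo 2 (log2 fold change between 0.21 and 0.43, adjusted p between 0.0522 and 0.152). With all libraries of only the 2 lines compared, Cenpe did not pass (adjusted p = 0.0569). Ndc80, Nuf2, Cenpf, Cenpi, Ska1 and Knstrn did not pass in any of the 3 comparisons, with log2 fold changes from 0.001 (Cenpf) to 0.135 (Nuf2) in HD-homo cells and from -0.07 (Cenpi) to 0.17 (Knstrn) in HD-het cells. Without HD-homo 3, Nuf2 (0.19, adjusted p = 0.0207) and Knstrn (0.20, adjusted p = 0.00845) passed in HD-homo cells against control. Knstrn also passed in HD-het cells when only the 2 lines compared were fitted (log2 fold change 0.16, adjusted p = 0.00891).

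In the chromosomal passenger complex, which corrects faulty attachments and then moves to the central spindle, 3 of 4 subunits were lower in HD-het cells and 0 higher. Incenp, the scaffold, had 207, 209 and 205 CPM in control, 134, 122 and 136 CPM in HD-het and 206, 187 and 165 CPM in HD-homo libraries. HD-het was lowest without overlap (log2 fold change -0.66, SE 0.077, adjusted p = 2.0e-05), and HD-homo, spread from the control range downwards, did not pass (log2 fold change -0.15, adjusted p = 0.109), though it did without HD-homo 1 (log2 fold change -0.23, adjusted p = 0.0203). Survivin (Birc5) had 147, 142 and 146 CPM in control, 100.1, 93.6 and 109 CPM in HD-het and 132, 132 and 114 CPM in HD-homo libraries. The order was control, HD-homo and HD-het without overlap (log2 fold change -0.52, SE 0.073, adjusted p = 7.4e-05 in HD-het, log2 fold change -0.20, SE 0.073, adjusted p = 0.0342 in HD-homo), and the HD-homo call was lost without control 1, control 2, control 3 or HD-homo 3 (log2 fold change between -0.21 and -0.14, adjusted p between 0.0607 and 0.115). Library totals in place of TMM also ended it (adjusted p = 0.0506). Borealin (Cdca8) had 88.6, 88.1 and 92.3 CPM in control, 89.3, 80.4 and 88.5 CPM in HD-het and 106, 95.7 and 84.9 CPM in HD-homo libraries. Its lines overlapped and no difference passed (log2 fold change -0.06, adjusted p = 0.533 in HD-het, log2 fold change 0.09, adjusted p = 0.343 in HD-homo). Aurkb, the catalytic subunit, is given above with the kinases and was higher in HD-homo cells.

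Condensin compacts mitotic chromosomes. All 5 subunit genes in the list passed as higher in the HD-homo than the HD-het line (log2 fold changes from 0.23 for Ncaph to 0.66 for Smc4), and the Ncaph call was lost without HD-het 2 or HD-homo 2 (log2 fold change between 0.17 and 0.19, adjusted p between 0.0515 and 0.0602). Against control, 3 of 5 were lower in HD-het cells and 2 of 5 higher in HD-homo cells. Smc4, an ATPase subunit, had 357, 411 and 332 CPM in control, 258, 305 and 267 CPM in HD-het and 420, 492 and 398 CPM in HD-homo libraries. HD-het was lowest without overlap (log2 fold change -0.40, SE 0.1, adjusted p = 0.00426), and the HD-homo libraries overlapped control (log2 fold change 0.25, SE 0.1, adjusted p = 0.0489), a call lost without control 1, control 3, HD-homo 1 or HD-homo 2 (log2 fold change between 0.16 and 0.28, adjusted p between 0.0617 and 0.176). The same call was also lost when only the 2 lines compared were fitted (adjusted p = 0.0591) and without replicate 3 of every line (adjusted p = 0.0822). Its partner Smc2 was also lower in HD-het cells (log2 fold change -0.38, adjusted p = 0.00776). Ncapd2, a regulatory subunit, had 254, 252 and 255 CPM in control, 202, 187 and 201 CPM in HD-het and 259, 278 and 228 CPM in HD-homo libraries. It was low in all HD-het libraries (log2 fold change -0.37, SE 0.071, adjusted p = 8.3e-04) and overlapped control in HD-homo (log2 fold change 0.01, adjusted p = 0.948). Ncaph, the kleisin that closes the ring, had 94.8, 91.4 and 89.2 CPM in control, 91.6, 86.7 and 95.2 CPM in HD-het and 109, 117 and 95.8 CPM in HD-homo libraries. HD-homo was above the other lines, which overlapped, and its difference from control (log2 fold change 0.22, SE 0.073, adjusted p = 0.0227) was lost without control 2, control 3, HD-homo 1 or HD-homo 2 (log2 fold change between 0.16 and 0.22, adjusted p between 0.0578 and 0.0795). Ncapg did not pass against control in HD-homo (log2 fold change 0.20, adjusted p = 0.0711) or HD-het (log2 fold change -0.21, adjusted p = 0.053), but its calls depended on the fit. The first passed without HD-homo 3 (0.27, adjusted p = 0.0158). The second passed with DESeq2's Wald test (adjusted p = 0.0407), DESeq2's size factors (adjusted p = 0.045), no filter (adjusted p = 0.0498), only the 2 lines compared (adjusted p = 0.0104) and without control 3 (-0.26, adjusted p = 0.0426).

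Of the 4 spindle assembly genes, which include Aurka and Nek2, 1 was higher and 1 lower in each HD line. Tpx2, which nucleates spindle microtubules and activates Aurora A, had 339, 342 and 328 CPM in control, 369, 369.6 and 391 CPM in HD-het and 312, 325 and 280.1 CPM in HD-homo libraries. HD-het was above and HD-homo below control without overlap. The HD-het difference passed (log2 fold change 0.16, SE 0.063, adjusted p = 0.0372) but was lost without control 1, control 2, control 3, HD-het 1, HD-het 2 or HD-het 3 (log2 fold change between 0.14 and 0.18, adjusted p between 0.0548 and 0.11). It was lost as well with library totals in place of TMM (adjusted p = 0.0625) and with no filter on low counts (adjusted p = 0.0588). The HD-homo difference did not pass (log2 fold change -0.14, adjusted p = 0.0821), though it did without HD-homo 2 (log2 fold change -0.18, adjusted p = 0.0306), and the HD lines differed (log2 fold change -0.30, adjusted p = 0.00114). Hmmr, a spindle-associated hyaluronan receptor, had 107, 118 and 102 CPM in control, 84.8, 92.2 and 89.3 CPM in HD-het and 124, 145 and 112 CPM in HD-homo libraries. HD-het was lowest without overlap (log2 fold change -0.30, SE 0.091, adjusted p = 0.0126), a call lost without control 2 or HD-het 1 (log2 fold change between -0.27 and -0.24, adjusted p between 0.0521 and 0.0586). HD-homo overlapped control (log2 fold change 0.21, adjusted p = 0.0611) and passed without control 2 or HD-homo 3 (log2 fold change 0.27 and 0.30, adjusted p = 0.0441 and 0.00997).

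The 4 members listed under cytokinesis all passed as lower in the HD-homo line than in control, and 3 of them were lower in HD-het cells. Lower calls made up 28.9% and 31.4% of all tested genes in these comparisons. All their libraries were without overlap with control in both HD lines, as were those of 65.3% (HD-homo) and 74.0% (HD-het) of all tested genes. Racgap1 (chr15:99620496-99651656, minus strand), the GTPase-activating component of centralspindlin, had 473, 462 and 468 CPM in control, 251, 238 and 261 CPM in HD-het and 422, 397 and 385 CPM in HD-homo libraries. HD-het was the lowest line and control the highest (log2 fold change -0.90, SE 0.057, adjusted p = 2.1e-07 in HD-het, log2 fold change -0.22, SE 0.057, adjusted p = 0.00609 in HD-homo), and HD-homo exceeded HD-het (log2 fold change 0.68, adjusted p = 9.2e-07). Ect2 (chr3:27097222-27153878, minus strand), the exchange factor that activates RhoA at the division plane, had 225, 243 and 230.1 CPM in control, 131, 146 and 160.1 CPM in HD-het and 143, 181 and 144 CPM in HD-homo libraries. The 2 HD lines overlapped, and both were below control (log2 fold change -0.57, SE 0.098, adjusted p = 4.2e-04 in HD-homo, log2 fold change -0.67, SE 0.098, adjusted p = 1.1e-04 in HD-het). Anln, the scaffold of the contractile ring, had 469.6, 489.6 and 456 CPM in control, 387, 416 and 425 CPM in HD-het and 349, 409 and 312 CPM in HD-homo libraries. HD-homo and HD-het overlapped, and the difference from control passed in HD-homo (log2 fold change -0.40, SE 0.088, adjusted p = 0.00221) but not in HD-het (log2 fold change -0.20, SE 0.088, adjusted p = 0.0595). The HD-het difference did pass with DESeq2's Wald test (adjusted p = 0.0429) and with only the 2 lines compared (adjusted p = 0.00629). Between the HD lines Anln passed without HD-homo 2 (log2 fold change -0.31, adjusted p = 0.0022). Prc1, which bundles the central spindle, was lower in HD-homo (log2 fold change -0.30, SE 0.074, adjusted p = 0.0046) and in HD-het cells (log2 fold change -0.21, adjusted p = 0.03), the second call lost without control 1, control 2, HD-het 1 or HD-het 2 (log2 fold change between -0.20 and -0.18, adjusted p between 0.0763 and 0.1).

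Genes of the same processes outside the 48 were counted by list, 110 genes in 8 lists, all of them tested. In HD-homo against control cells 31 were higher and 15 lower, with a median log2 fold change of 0.03. HD-het against control gave 19 higher and 48 lower genes, with a median of -0.13, and HD-homo against HD-het gave 58 higher and 13 lower genes, with a median of 0.20. The shares of all tested genes are those given above (29.6% and 28.9%, 33.8% and 31.4%, 36.0% and 35.6%).

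Of 28 other kinetochore genes, 10 were higher and 5 lower in HD-homo cells, from Zwint (-0.56, adjusted p = 9.0e-06) to Oip5 (0.58, adjusted p = 0.0004), against 4 higher and 13 lower in HD-het cells, with Cenpm lowest (-1.05, adjusted p = 5.1e-06). Of 15 cohesin genes, 2 were higher and 0 lower in HD-homo cells, from Sgo1 (-0.19, adjusted p = 0.059) to Nipbl (0.31, adjusted p = 0.024), against 2 higher and 7 lower in HD-het cells. Of 15 other subunits and regulators of the anaphase-promoting complex, 6 were higher and 1 lower in HD-homo cells, from Fbxo5 (-0.31, adjusted p = 0.028) to Anapc13 (0.82, adjusted p = 5.4e-05), against 5 higher and 4 lower in HD-het cells. Of 12 mitotic kinesins, 3 were higher and 0 lower in HD-homo cells, from Kif14 (-0.18, adjusted p = 0.15) to Kif15 (0.48, adjusted p = 0.00056), against 1 higher and 4 lower in HD-het cells. In the 3 genes of condensin II, Ncaph2 was higher in HD-homo cells (0.22, adjusted p = 0.0036) and Ncapg2 did not pass (-0.04, adjusted p = 0.68), and 2 of the 3 were lower in HD-het cells.

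Regulators of entry into the cycle included differences beyond the range of the 48 genes. Of 15 genes of G1 and S phase entry, 1 was higher and 6 lower in HD-homo cells, from Ccnd2 (-2.37, adjusted p = 2.8e-10) to Mcm5 (0.31, adjusted p = 0.0064), and 3 were higher and 10 lower in HD-het cells, with Ccnd1 lowest (-2.41, adjusted p = 4.5e-08). Ccnd1 and Ccnd2 encode D-type cyclins, which start the cycle with Cdk4 and Cdk6. Of 11 genes of the DREAM and MuvB complexes, which are known to act on CHR promoters, 4 were higher and 2 lower in HD-homo cells, from Lin52 (-0.70, adjusted p = 0.00041) to Tfdp2 (0.56, adjusted p = 0.00031), against 1 higher and 3 lower in HD-het cells. Of 11 regulators of the Cdk1 switch, 4 were higher and 1 lower in HD-homo cells, from Cks1b (-0.24, adjusted p = 0.013) to Arpp19 (0.42, adjusted p = 2.2e-05), against 3 higher and 5 lower in HD-het cells.

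Some counts are uncertain for reasons of sequence. Besides Ccnb1 and Mybl2, the share of 50-base words found in another gene was 11.4% for Cdc20, 7.89% for Racgap1, 6.84% for Plk1 and 5.34% for Ndc80. Exons overlap a gene on the other strand over 769 bases in Ncapg (Lcorl), 670 in Prc1 (Rccd1), 592 in Ube2c (Tnnc2) and 378 in Ccna2 (Exosc9). The libraries were strand-specific, but whether the counting used the strand is not given in the sources used here.

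Within each line, libraries also differed by the base composition of the transcripts. Over the 48 genes, the log2 deviation from the line mean correlated with GC content at r = -0.62, -0.74 and -0.61 in replicate 2 of the control, HD-het and HD-homo lines, and at r = 0.57, 0.60 and 0.71 in control 3, HD-het 1 and HD-homo 1. These values are across genes that share their libraries and are a description only. Without replicate 2 of every line, a setting chosen after these values were seen, the counts of higher and lower genes were 11 and 7 in HD-homo and 3 and 18 in HD-het cells against control, and 19 and 4 in HD-homo against HD-het cells. Over all 13547 tested genes these counts were 3254 and 3193, 3916 and 3642, and 4317 and 4349. The higher calls lost in HD-homo against control were those of Ccnb1, Bub1, Bub1b, Ncaph, Spc24 and Spc25, and the calls lost in HD-het cells were those of Prc1, Ttk and Tpx2. Between lines, the log2 fold changes of the 48 genes correlated with GC content at r = -0.16 in HD-homo and -0.12 in HD-het against control, and at r = 0.01 between the HD lines.

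**Figure D5:**
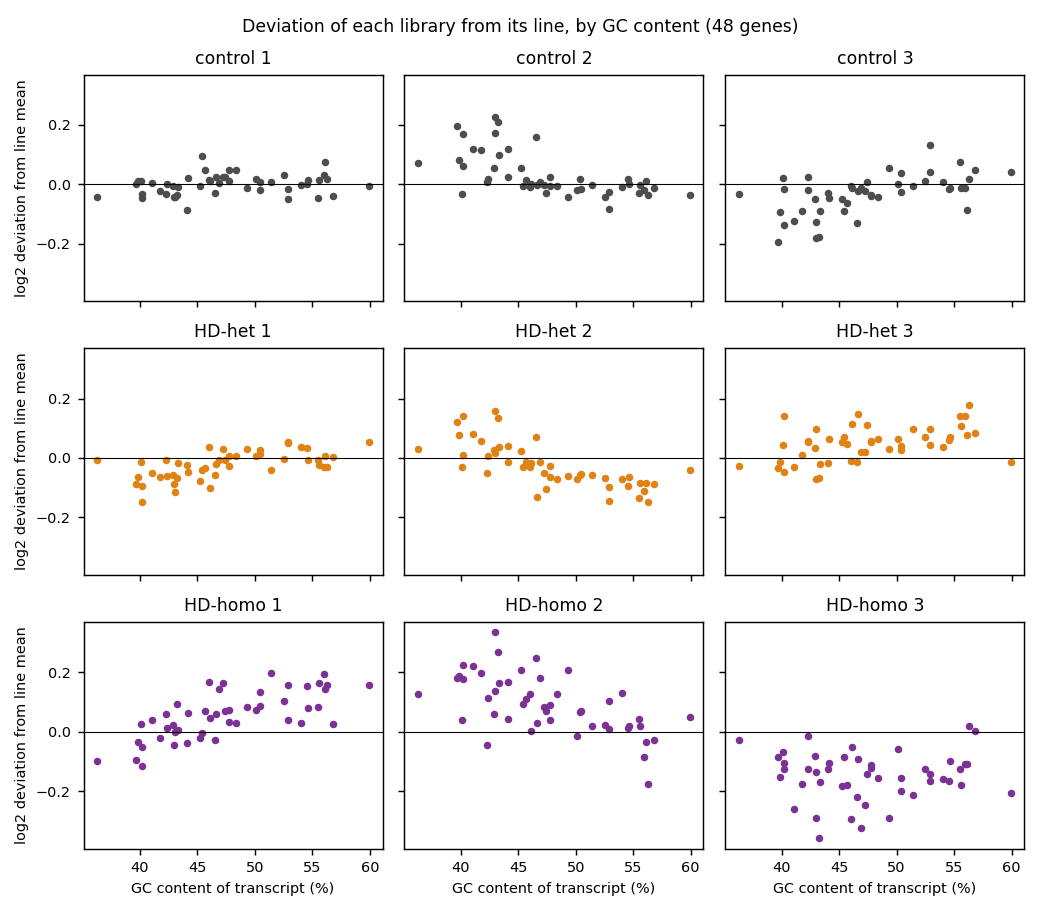
Log2 deviation of each of the 48 genes from the mean of its line (vertical axis) against the GC content of its longest transcript in percent (horizontal axis), 1 panel per library and 1 row of panels per line. The points slope down in all 3 replicate 2 panels (r = -0.62, -0.74 and -0.61), and in HD-homo 3 they lie below 0 for 46 of 48 genes without a slope (r = 0.04).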

How the data were processed

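Poly(A) RNA of 3 libraries from each of 3 lines was sequenced as strand-specific libraries. The deposited values are whole-number counts per gene, which the authors did not normalize, and all 9 columns are separate libraries. The submitters' processing notes name cutadapt, Bowtie 1.1.2, RSEM 1.3.0 and DESeq2 with the builds GRCm38.p5 and mm10, but give no order or role. If RSEM made the table, the counts are rounded estimates that may split shared reads.

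Genes were filtered with filterByExpr (minimum count 10), normalized by TMM (factors 0.984 to 1.03) and fitted over all 9 libraries with edgeR 4.0.16 in R 4.3.3. The quasi-likelihood test gave p-values adjusted by Benjamini-Hochberg over all 13508 tested genes in each comparison, with a threshold of 0.05, and log2 fold changes with the default prior count of 0.125. CPM used TMM-normalized library totals. The test was run on simulated counts for HD-homo against control, where 171 of 188 changed genes were recovered and 5.52% of 181 calls were false. The simulation gave all genes the same dispersion in both lines, so it does not cover the larger spread of the HD-homo line. At 1.5-fold, 50 of 62 changed genes were recovered, and no smaller change was simulated. In the data 47 of the 48 genes lay within 1.5-fold in this comparison, so recovery of changes of their size was not tested. The changed genes were also a far smaller share of the 12622 simulated than the 58.6% that passed in the data. Totals of 29507665 to 41197931 counts set the precision of each level, together with the spread between libraries. Exon lengths, GC content and gene positions came from GENCODE M21 on GRCm38, and shared words were counted over its transcripts.

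The members, role lists, context lists and markers were chosen with earlier results of these data known. Named with values in every library are the genes with the highest and lowest log2 fold change of each role list in each HD line against control, 4 fixed genes (Mki67, Top2a, Cdk1 and Ccnb1) and genes called in opposite directions in the HD lines. From each context list the extremes in HD-homo cells are named, and other genes were named after their values were seen. Alternatives were other normalizations, DESeq2 1.42.0, other filters, 2 lines only, a replicate block, leaving out libraries and stricter thresholds.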

Additional observations from a re-analysis of the deposited data

How the results depend on the processing

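The counts of higher and lower genes kept their size under the size factors of DESeq2, library totals, DESeq2's Wald test, both other filters and the fit of only the 2 lines compared (15 to 17 higher and 6 to 7 lower in HD-homo against control, 3 to 5 and 18 to 22 in HD-het against control, 22 to 27 and 2 in HD-homo against HD-het), although not every gene kept its call. Over all tested genes (11739 to 17876) the same fits gave 3396 to 4159 higher and 3354 to 3933 lower in HD-homo against control. HD-het against control gave 3890 to 4811 and 3872 to 4492, and HD-homo against HD-het 4268 to 5088 and 4086 to 4945. Leaving out 1 library at a time gave, of the 48 genes, 9 to 23 higher and 6 to 9 lower in HD-homo against control, 3 higher and 16 to 20 lower in HD-het against control, and 21 to 32 higher and 2 to 4 lower in HD-homo against HD-het. Each of these fits has 8 libraries, 1 fewer in the line concerned. Over all tested genes they gave 3475 to 3870 and 3367 to 3800, 4082 to 4452 and 3783 to 4122, and 4528 to 4781 and 4449 to 4822. Without replicate 3 of every line the counts of the 48 genes were 20 and 6, 4 and 21, and 31 and 2. Over all 13573 tested genes the same counts were 3813 and 3696, 4468 and 4136, and 4795 and 4693. Without replicate 2 of every line, a setting added after the data were seen, HD-homo against control had 11 higher genes and HD-homo against HD-het had 4 lower genes. Over all 13547 tested genes these counts were 3254 and 4349. At an adjusted p of 0.01, 7 genes were higher and 6 lower in HD-homo against control, 3 and 16 in HD-het against control, and 19 and 2 in HD-homo against HD-het. Over all 13508 tested genes these counts were 3049 and 2979, 3692 and 3461, and 4155 and 4084. When a size of 1 on the log2 scale was also required, 1 was higher and 0 lower in HD-homo against control, 1 and 1 in HD-het against control, and 1 and 0 in HD-homo against HD-het. Over all 13508 tested genes these counts were 1367 and 1207, 1622 and 868, and 1399 and 1886.

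With the replicate number as a block, the counts were 20 and 7, 4 and 22, and 25 and 3. Over all 13508 tested genes they were 4234 and 4138, 4750 and 4410, and 4991 and 4947. Calls gained under the replicate block were those of Hmmr, Ncapg and Smc2 in HD-homo against control, Anln, Cenpk and Ncapg in HD-het against control, and Anln and Ndc80 in HD-homo against HD-het. Replicate numbers are shared between the lines in the labels, but the deviations of same-numbered libraries from their line means correlated at only 0.0226 to 0.0398 between HD-homo and control, 0.0682 to 0.245 between HD-het and control and 0.0322 to 0.202 between HD-homo and HD-het, where more than 0.1 in every pair was required, so the numbers were not taken to pair the samples. In these 3 comparisons 6, 5 and 4 of 6 libraries correlated best with their own number, which is a hint from the data and not part of the design.

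Of the genes that passed, 12 of 24, 19 of 23 and 20 of 26 passed in every alternative fit at the same threshold, and 0 changed sign. Of those that did not pass, 10 of 24, 8 of 25 and 12 of 22 changed sign in at least 1 fit, and 10, 4 and 10 passed in at least 1. A planned repeat with older symbols was not run, since the only rows that match older names of members are Aim1 (Aurkb) and Cdh1 (Fzr1), which are also names of other genes.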

Other observations

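The spread between libraries of a line exceeded counting error in all lines. Over the tested genes, the variance between 2 libraries of a line was 2.28 times that expected from counting between control 1 and control 2, and 41.6 times between HD-homo 2 and HD-homo 3. The motor gene Cenpe had the highest coefficient of variation of the 48 genes in control cells (14.6%) and in HD-homo cells (22.1%), and Mybl2 in HD-het cells (11.6%). In control 2, HD-het 2 and HD-homo 2, Cenpe was the gene furthest above its line mean (0.23, 0.16 and 0.33 on the log2 scale). Deviations of the 48 genes also correlated with the log2 length of the transcript, at r = 0.53 in control 2, 0.48 in HD-het 2 and 0.34 in HD-homo 2, and at r = -0.55 in control 3. These are descriptions across genes, and their part in the differences between the lines was not tested.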
